A study of Homo sapiens with 46 samples.

Results

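HCT116 cells, a human colon carcinoma line, were studied 4 days after Cre recombinase was sent to the nucleus to excise the last intact XRCC5 allele, which encodes Ku86 (also called Ku80). The members were chosen by their labels: 2 libraries of Ku86Flox/-:CreERT2 cells given 50 nM 4-hydroxytamoxifen (4OHT) and 2 libraries of the same line given ethanol (EtOH), 4 of the 46 samples of the series. Both groups come from cells with 1 floxed and 1 lost allele, so the ethanol libraries are not wild type for Ku86. CreERT2 is Cre joined to a modified ligand-binding part of the estrogen receptor, and it stays outside the nucleus until 4OHT binds it. Beside them stood 4 libraries of Ku86Flox/- cells without Cre, 2 given 4OHT and 2 given ethanol for 4 days. The dose is stated for the Cre cells, and the labels do not say whether each line was 1 clone. Further values come from 6 libraries of HCT116 clones 1, 7 and 9, in which Ku80 was fused to an auxin-inducible degron and was degraded with 100 µM indole-3-acetic acid (IAA) and 0.5 µg/mL doxycycline for 4 days, against DMSO for 2 days. The other samples of the series give no comparison here, though the other HCT116 libraries entered the fit that gave the degron values. These were degron clones at other times or with a CDK inhibitor, and MAVS-knockout degron clones.

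Ku is a ring of Ku70 and Ku86 that threads onto broken DNA ends, recruits the DNA-PK catalytic subunit and starts non-homologous end joining. Mouse cells live without it, whereas human cells need it, which has been tied to the protection of telomeres. p53 is the transcription factor that answers DNA damage by stopping the cell cycle, and interferon-stimulated genes (ISGs) are switched on when RNA or DNA sensors find nucleic acid in the wrong place.

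The labels do not say that replicates were separate cultures, so the p-values cover only library-to-library spread, possibly technical. No library held nuclear Cre without a floxed allele, so the activity of Cre and the loss of Ku86 cannot be told apart. The library names of the ethanol samples call them day 0, whereas their titles and treatment fields say 4 days. In bulk RNA, fewer cells of a kind and less RNA per cell cannot be told apart. Totals ran from 13.05 to 17.61 M (mega) estimated counts per library over the 8 Ku86Flox/- libraries. The epithelial marker EPCAM was present in every library, at 173 and 165 CPM in ethanol and 174 and 182 CPM in 4OHT in the Cre line, and so was the intestinal factor CDX2, at 19.8 and 19.98 CPM in ethanol and 20.5 and 19.1 CPM in 4OHT. The colon markers CDH17, CDX1, CEACAM5, FABP1 and LGALS4 lay below the count filter. Of other cell types, PTPRC, CD3E, PECAM1 and COL1A2 lay below it too, whereas the endothelial VWF (1.08 and 1.76 CPM in ethanol and 0.568 and 0.540 CPM in 4OHT), the macrophage CD68 (10.4 and 8.84 CPM in ethanol and 12.2 and 12.1 CPM in 4OHT) and the fibroblast COL1A1 passed. Levels are in CPM (counts scaled to a common library size), and changes are log2 fold changes from edgeR. The value after ± is an approximate standard error. The edgeR test used gives none, so it was worked back from each change and its test statistic. It is not dependable for changes near 0. A gene is called at a Benjamini-Hochberg adjusted p under 0.05 over all genes tested. With 2 libraries a group, a lack of overlap between 4OHT and ethanol only describes the printed values. Its share over all genes was not counted.

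The targeted gene and the transgene both matched the labels. ESR1, the estrogen receptor gene of which CreERT2 carries a part, read 1193 and 1133 CPM in the Cre line with ethanol and 18.6 and 18.4 CPM in the line without Cre, so the transgene's reads were seen where the labels place it. With 4OHT it read 731 and 727 CPM, a change of -0.67 ± 0.062. XRCC5 (chr2:216109348-216206293, GRCh38.p14) read 256 and 258 CPM in ethanol and 24.9 and 30.7 CPM in 4OHT in the Cre line. Both 4OHT libraries lay far below both ethanol libraries, at a mean of 10.8% of the ethanol level, a log2 change of -3.21 ± 0.079 (edgeR adjusted p = 6.31e-12). Without Cre, XRCC5 read 252 and 236 CPM in ethanol and 244 and 236 CPM in 4OHT, and the groups overlapped. The table counts reads over the whole gene, so transcripts that lost the floxed part are not separated from intact ones. The partners fell too. XRCC6, which encodes Ku70, read 720.0 and 723 CPM in ethanol and 468 and 486 CPM in 4OHT (log2 change -0.60 ± 0.047, edgeR adjusted p = 1.77e-07). It also fell without Cre, by a smaller amount (-0.22 ± 0.046, edgeR adjusted p = 0.00756), and the responses differed by -0.38 ± 0.065 (edgeR adjusted p = 0.000463). PRKDC, the catalytic subunit of DNA-PK, read 819.6 and 829.6 CPM in ethanol and 492 and 491 CPM in 4OHT, a change of -0.75 ± 0.046 (edgeR adjusted p = 1.9e-08), and -0.069 ± 0.046 without Cre (edgeR adjusted p = 0.344).

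The genes beside XRCC5 went in both directions. Of the 5 nearest reference genes on each side, 3 passed the count filter. MREG, 75.3 kb away, read 16.8 and 18.3 CPM in ethanol and 22.7 and 24.1 CPM in 4OHT and rose by 0.41 ± 0.090. PECR, 27.5 kb away, read 9.53 and 9.81 CPM in ethanol and 7.66 and 6.02 CPM in 4OHT, a fall of 0.49 on the log2 scale. The long non-coding RNA LINC01963, 10.6 kb past the end of XRCC5, read 14.1 and 14.9 CPM in ethanol and 5.46 and 7.18 CPM in 4OHT, a change of -1.20 ± 0.14 (edgeR adjusted p = 9.64e-06). It went the other way without Cre, from 8.83 and 7.24 to 13.6 and 12.7 CPM. All 3 were called in the Cre line, where 26.4% of all genes were higher and 27.5% lower. TMEM169, between PECR and XRCC5, lay below the count filter.

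**Figure D1:**
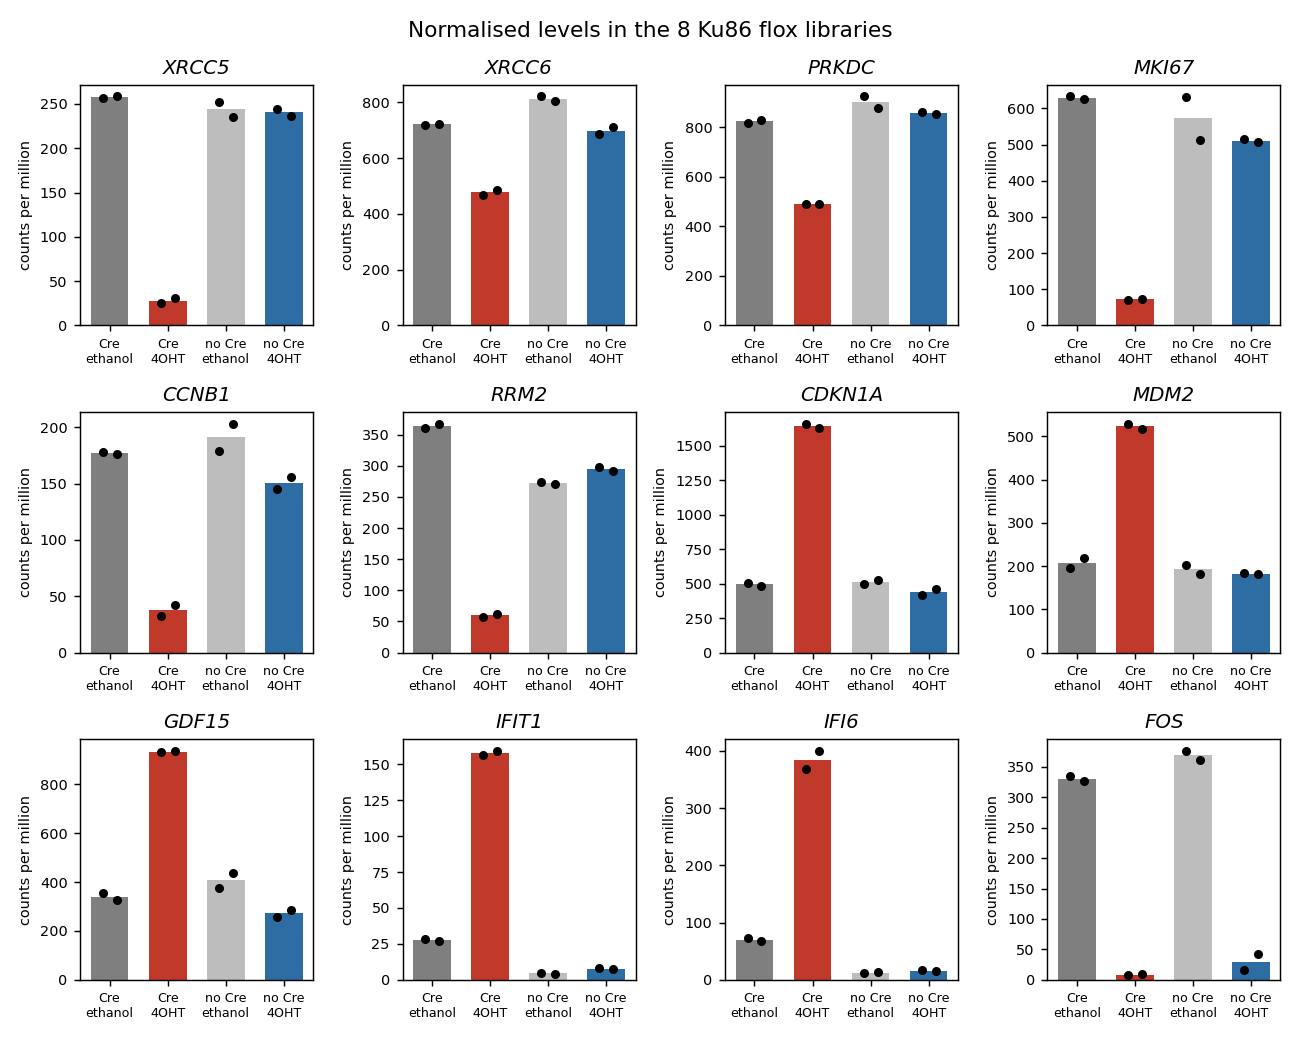
Normalised level (CPM, linear axis from 0) of 12 genes in the 8 Ku86Flox/- libraries; bars are group means and points the 2 libraries of each group. XRCC5 stood at 24.9 and 30.7 CPM in the Cre line with 4OHT and at 236 CPM or more elsewhere, while FOS was low with 4OHT in both lines.

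Across the transcriptome, 4OHT changed many genes in the Cre line. Of 16726 genes, 4424 were higher (26.4%) and 4605 lower (27.5%), with a median change of -0.0042 over all genes. A gene group with shares near these gives no result about that group. Calls of at least 1.5-fold numbered 1992 higher and 2499 lower, and calls of at least 2-fold 838 and 1399. DESeq2 called 3450 higher and 3592 lower. On log2(TPM + 1) values, limma called 2668 higher and 4553 lower, so the number of calls and their balance differed between alternatives. Limma on these values differs in both tool and scaling, and which of them moved the balance was not tested. In the line without Cre, 4OHT called 1215 genes higher (7.26%) and 1077 lower (6.44%), 99 and 61 of them at least 2-fold. That balance also moved between alternatives: 2004 higher and 612 lower with library totals alone, 417 and 157 with limma on TPM values, and 521 and 809 with DESeq2. The total of 2292 was 773 without the first and 1097 without the second 4OHT library of that line.

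The response with Cre was tested against the response without Cre in the same fit. This difference was called higher for 3141 genes (18.8%) and lower for 3744 (22.4%). With limma on TPM values it was 1280 and 3821, and with library totals alone 2470 and 4476. With those alternatives the median difference of all genes was -0.18 and -0.11, against -0.027. Of the genes called in the Cre line, 513 were higher and 491 lower in both lines, and 248 rose with Cre and fell without it, against 347 that fell with Cre and rose without it.

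**Figure D2:**
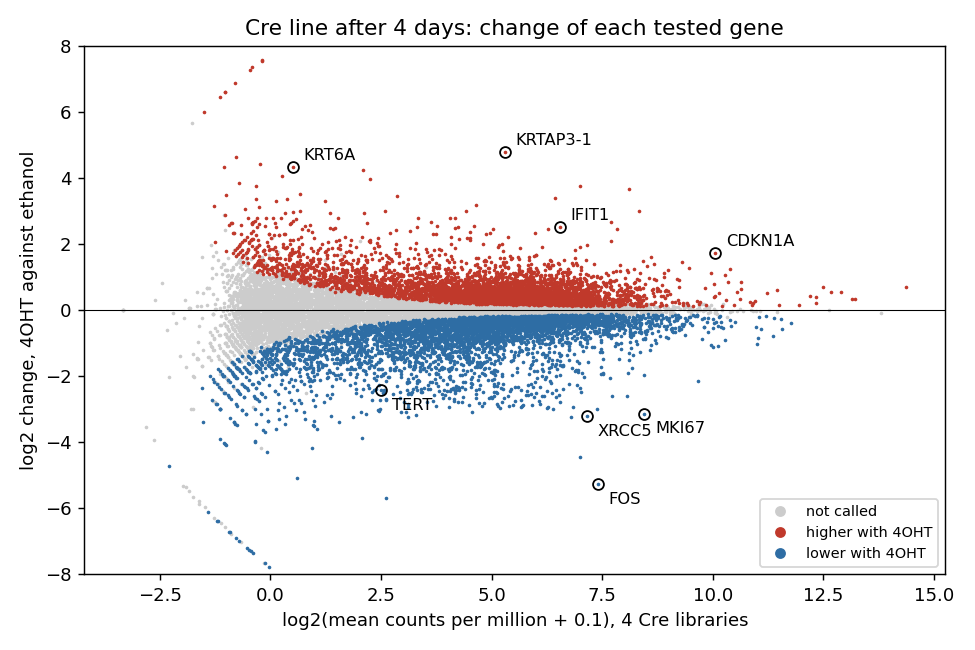
Log2 change with 4OHT in the Cre line against the mean level of each of 16726 tested genes (log2 axis); red and blue points passed an adjusted p under 0.05, and 7 genes lie beyond the axis limit of 8. MKI67 and XRCC5 sit near -3 at high levels, while IFIT1, CDKN1A and KRTAP3-1 lie above the line.

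Genes of cell division fell furthest among the gene groups. All 62 mitosis genes tested fell in the Cre line (median change -2.57), from BUB3 at -0.47 to ANLN at -3.24. MKI67, the proliferation antigen Ki-67, read 633 and 626 CPM in ethanol and 71.3 and 72.3 CPM in 4OHT. Its 4OHT libraries lay close together and far below both ethanol libraries, a change of -3.13 ± 0.085 (edgeR adjusted p = 1.23e-11). ANLN, the contractile-ring protein anillin, read 197 and 202 CPM in ethanol and 20.3 and 21.9 CPM in 4OHT. CCNB1, cyclin B1, which switches on the mitotic kinase, read 179 and 176 CPM in ethanol and 32.7 and 42.4 CPM in 4OHT, a change of -2.24 ± 0.10 (edgeR adjusted p = 5.57e-10). CDC20, the activator of the anaphase-promoting complex, fell from 212 and 195 to 24.5 and 28.4 CPM. CDK1, the mitotic kinase itself, fell from 109 and 118 to 20.7 and 24.7 CPM, and for none of these genes did the groups overlap. Without Cre, 31 of the 62 fell too, against 6.44% of all genes, and by less than with Cre (median -0.23). The difference between the lines was called lower for all 62.

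Replication genes fell with them. Of 52 replication and E2F target genes, 51 fell (median -1.86). The exception was CCNE1, cyclin E1, which read 30.9 and 31.5 CPM in ethanol and 31.8 and 33.4 CPM in 4OHT (edgeR adjusted p = 0.505). RRM2, the ribonucleotide reductase subunit made in S phase, read 360.4 and 368 CPM in ethanol and 57.8 and 62.2 CPM in 4OHT, a change of -2.60 ± 0.055 (edgeR adjusted p = 1.85e-12). POLE2, a subunit of DNA polymerase epsilon, read 13.9 and 16.2 CPM in ethanol and 2.55 and 1.62 CPM in 4OHT. In both the 4OHT libraries lay well below the ethanol libraries. The transcription factor E2F1 read 40.7 and 43.8 CPM in ethanol and 7.09 and 8.88 CPM in 4OHT, and MCM2, part of the replicative helicase, 220.4 and 197 CPM in ethanol and 56.3 and 54.7 CPM in 4OHT. PCNA, the sliding clamp and also a p53 target, had the smallest fall of the 51, -0.24 ± 0.049. In the line without Cre this list leaned the other way, with 18 members higher and the other 34 not called.

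The promoters of these genes carry known elements. Cell-cycle genes of G2 and mitosis are repressed through the cell cycle genes homology region (CHR, TTTGAA), and G1/S genes are driven through E2F sites (TTTCGCGC or TTTGGCGC). Both were searched on both strands of the 300 bases from 250 before to 50 after each RefSeq gene start (GRCh38.p14). The CHR was found in 35 of 53 mitosis promoters (66.0%) against 9.57% of the 11426 promoters of tested genes and 15.4% of all 27305. An E2F site was found in 14 of 43 replication promoters (32.6%) against 2.04% and 1.18%. The stretches below are from genes with large falls and show where the letters lie, with motif letters in capitals, on the gene's strand. ANLN is at chr7:36389811-36389861 (plus strand), MKI67 at chr10:128126440-128126495 (minus), POLE2 at chr14:49688212-49688244 (minus) and E2F1 at chr20:33686386-33686430 (minus).
ANLN: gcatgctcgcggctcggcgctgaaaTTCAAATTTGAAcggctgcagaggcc
MKI67: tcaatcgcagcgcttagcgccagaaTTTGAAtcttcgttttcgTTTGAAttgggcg
POLE2: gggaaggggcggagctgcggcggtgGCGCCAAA
E2F1: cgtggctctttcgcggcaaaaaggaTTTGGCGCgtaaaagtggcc
A match is a description of letters, not a bound site.

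DNA repair genes fell more often than they rose. Of 39 homologous recombination and Fanconi anaemia genes, 31 fell (median -1.42) and the other 8 were not called. EXO1, the nuclease that resects broken ends, read 34.99 and 35.4 CPM in ethanol and 5.60 and 5.79 CPM in 4OHT, a change of -2.63 ± 0.094 (edgeR adjusted p = 1.15e-10). BRCA1, which acts early in recombination at breaks, read 37.8 and 38.5 CPM in ethanol and 12.8 and 15.9 CPM in 4OHT. FANCD2, the Fanconi protein that marks crosslinked DNA, changed by -2.34 ± 0.080, and the helicase BRIP1 by -2.36 ± 0.10. RAD50, of the MRN complex that senses ends, read 77.2 and 76.1 CPM in ethanol and 81.2 and 80.8 CPM in 4OHT and was not called (edgeR adjusted p = 0.295).

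Of 29 end-joining genes 17 fell, XRCC5 among them, and 5 rose (median change -0.39), against 27.5% lower and 26.4% higher among all genes. POLQ, the polymerase of the microhomology pathway that does not need Ku, read 26.6 and 26.1 CPM in ethanol and 6.38 and 6.41 CPM in 4OHT, a change of -2.04 ± 0.11 (edgeR adjusted p = 4.65e-09). The ligase LIG4 rose, with 13.2 and 17.8 CPM in ethanol and 19.3 and 20.4 CPM in 4OHT (0.36 ± 0.13, edgeR adjusted p = 0.0354). Its partners XRCC4 and NHEJ1 fell, with log2 changes of -0.37 ± 0.091 and -0.37 ± 0.11. PARP3, a break sensor, rose by 0.63 ± 0.076, and POLL, a gap-filling polymerase, by 0.48 ± 0.070. Among 21 damage-signalling genes 13 fell. CLSPN, the mediator of the replication checkpoint, changed by -2.46 ± 0.11, and the kinases ATM and ATR were not called (-0.086 ± 0.074 and 0.084 ± 0.086).

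Of 24 telomere genes 10 fell and 6 rose, against 27.5% lower and 26.4% higher among all genes. TERT, the catalytic subunit of telomerase, read 10.2 and 8.60 CPM in ethanol and 1.14 and 2.39 CPM in 4OHT, a change of -2.43 ± 0.24 (edgeR adjusted p = 2.03e-06). PIF1, a DNA helicase that limits telomerase, read 16.4 and 16.8 CPM in ethanol and 2.27 and 3.94 CPM in 4OHT. POT1, the shelterin subunit on the single strand, fell from 22.8 and 20.3 to 9.58 and 8.96 CPM. TERF2IP (RAP1), which binds the shelterin protein TRF2, rose from 59.8 and 49.2 to 88.8 and 86.8 CPM. Groups did not overlap in any of the 4. TERF2 itself was not called (-0.13 ± 0.062), and TERC, the telomerase RNA, which carries no long poly-A tail, lay below the filter.

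Targets of p53 rose together. Of 56 tested, 50 rose and 3 fell (median change 0.89). CDKN1A, which encodes the cell-cycle inhibitor p21, read 508 and 482 CPM in ethanol and 1659.7 and 1625 CPM in 4OHT, a change of 1.73 ± 0.056 (edgeR adjusted p = 4.79e-11). MDM2, the ubiquitin ligase that limits p53, read 195 and 218 CPM in ethanol and 529.7 and 517 CPM in 4OHT, and GDF15, a secreted stress cytokine, 355 and 325 CPM in ethanol and 930.5 and 937 CPM in 4OHT. In all 3 both 4OHT libraries lay above both ethanol libraries. TP53I3, a quinone oxidoreductase, rose from 22.9 and 24.5 to 127 and 134 CPM, and ABCA12, a lipid transporter, from 1.47 and 0.969 to 7.02 and 8.34 CPM. The fall was largest for KITLG, the ligand of the KIT receptor, which read 504 and 561 CPM in ethanol and 219 and 247 CPM in 4OHT.

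The line without Cre did not share this. There 17 of the 56 p53 targets fell and 2 rose, and the difference between the lines was called higher for 52 and lower for 1. CDKN1A read 499 and 527 CPM in ethanol and 420.1 and 459 CPM in 4OHT, and GDF15 read 376 and 438 CPM in ethanol and 257 and 285 CPM in 4OHT, a change of -0.59 ± 0.074. The response with Cre exceeded that without by 2.04 ± 0.10 for GDF15 and by 1.95 ± 0.078 for CDKN1A on the log2 scale (edgeR adjusted p = 7.74e-09 and 1.35e-09).

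Genes of cell death leaned upward: 19 of 30 BCL2-family and death-receptor genes rose and 2 fell (median 0.40). BIK, a pro-apoptotic BH3-only protein, read 15.4 and 13.6 CPM in ethanol and 56.5 and 58.4 CPM in 4OHT, and FAS, a death receptor and p53 target, 21.4 and 22.9 CPM in ethanol and 64.8 and 63.2 CPM in 4OHT. The fallers were BCL2, the founding anti-apoptotic protein, at 3.06 and 3.03 CPM in ethanol and 0.497 and 0.618 CPM in 4OHT, and BMF, a BH3-only protein, at 2.10 and 1.39 CPM in ethanol and 0.284 and 0.695 CPM in 4OHT. All 4 had groups apart from each other. Of 18 CDK inhibitors and G1 regulators, 9 fell and 4 rose, against 27.5% lower and 26.4% higher among all genes. CCND1, cyclin D1, rose from 792 and 796 to 1889 and 1879 CPM, while CDKN2C, the inhibitor p18, changed by -3.04 ± 0.23.

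**Figure D3:**
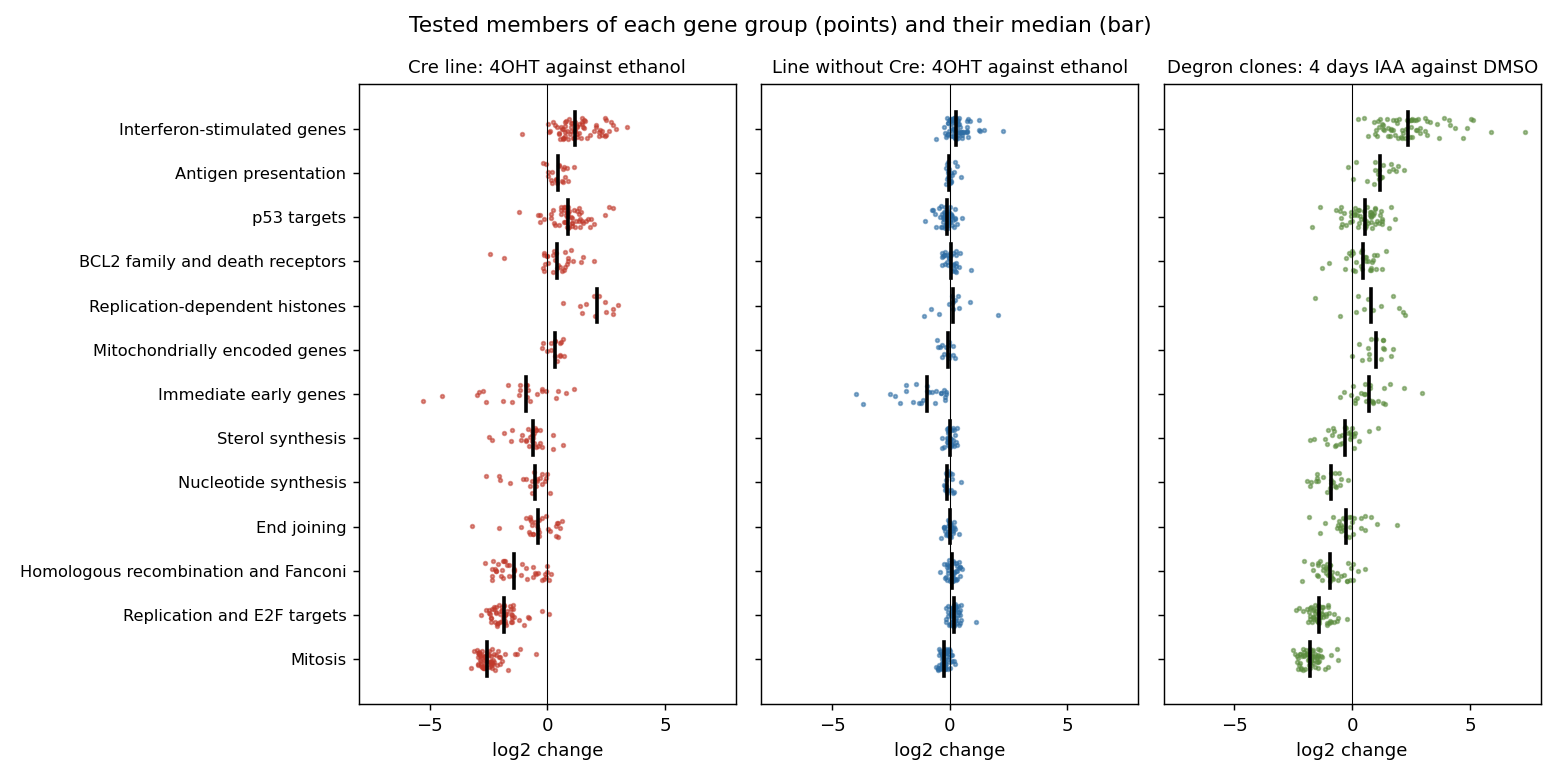
Log2 change of each tested member (points) and the median (bar) of 13 gene groups, in the Cre line with 4OHT, in the line without Cre with 4OHT, and in the degron clones after 4 days of IAA. Mitosis and replication genes lie left of 0 in the Cre line (medians -2.57 and -1.86) and in the degron clones (-1.78 and -1.43), while interferon-stimulated genes lie mostly right of 0 in both (medians 1.19 and 2.35).

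Nearly all interferon-stimulated genes rose. Of 68 tested, 63 rose (median 1.19) and 5 were not called. IFI44L, MX2, RSAD2, SAMD9L and XAF1 passed the count filter only through the Cre 4OHT group, and of the other 63 tested 58 rose. The summed level of all 68 went from 3407 and 3350 to 7000 and 7031 CPM. IFIT1, which binds foreign 5′ RNA ends, read 28.4 and 26.8 CPM in ethanol and 156 and 159.5 CPM in 4OHT, a change of 2.52 ± 0.067 (edgeR adjusted p = 1.18e-11). IFI6, a membrane protein that blocks flavivirus replication, read 72.5 and 67.01 CPM in ethanol and 369 and 400.4 CPM in 4OHT, and ISG15, the ubiquitin-like modifier, 80.9 and 76.8 CPM in ethanol and 341 and 330.2 CPM in 4OHT. OAS1, a synthase of oligoadenylate chains that switch on RNase L, read 14.97 and 13.98 CPM in ethanol and 68.5 and 67.1 CPM in 4OHT. In all 4 the groups lay well apart. The largest changes were in low genes, SAMD9L at 0.0567 and 0.182 CPM in ethanol and 1.63 and 0.927 CPM in 4OHT and RSAD2 (viperin) at 0.454 and 0.0605 CPM in ethanol and 2.27 and 1.85 CPM in 4OHT. The genes not called were MX1, RNF213, IFITM2, PSMB9 and GBP2, with MX1 at 3.80 and 4.96 CPM in ethanol and 4.82 and 5.48 CPM in 4OHT.

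The Cre line had more ISG RNA than the line without Cre already in ethanol. There, 60 of the 68 ISGs (88.2%) were higher in both Cre libraries than in both libraries without Cre, against 31.7% of all genes, and the summed level without Cre was 2265 and 2307 CPM. IFIT1 read 4.84 and 4.24 CPM in ethanol without Cre and 8.18 and 7.52 CPM with 4OHT. IFI6 read 12.5 and 12.9 CPM and 16.3 and 14.98 CPM. Both genes were several times lower in the line without Cre than in the Cre line with ethanol. That line's response to 4OHT was smaller: 19 of 68 rose (median 0.26) and the other 49 were not called. The Cre response exceeded it by 1.74 ± 0.15 for IFIT1 and 2.16 ± 0.12 for IFI6 (edgeR adjusted p = 1.36e-06 and 2.08e-08), and over the list the difference was called higher for 44 and lower for 1.

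ISGs are driven through the interferon-stimulated response element, searched here as TTTC, any 2 bases and TTTC on both strands of the same window. It was found in 34 of 53 ISG promoters (64.2%) against 2.69% of promoters of tested genes and 3.65% of all. The 3 stretches come from ISGs with changes near 2.5, with motif letters in capitals on the gene's strand, so that GAAA, 2 bases and GAAA is the element read from the other strand. IFIT1 is at chr10:89392482-89392541 (plus), IFI27 at chr14:94110603-94110662 (plus) and IFI6 at chr1:27672314-27672373 (minus).
IFIT1: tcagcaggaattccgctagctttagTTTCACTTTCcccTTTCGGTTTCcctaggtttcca
IFI27: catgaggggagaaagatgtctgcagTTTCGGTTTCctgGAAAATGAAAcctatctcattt
IFI6: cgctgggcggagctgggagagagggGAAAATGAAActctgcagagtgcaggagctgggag
IFI27, a mitochondrial ISG product, read 5.27 and 6.05 CPM in ethanol and 30.3 and 33.97 CPM in 4OHT, a change of 2.50 ± 0.15.

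The main cytoplasmic RNA sensors rose. RIGI, the sensor of 5′-triphosphate RNA, read 29.8 and 29.4 CPM in ethanol and 111 and 110.3 CPM in 4OHT (1.90 ± 0.075, edgeR adjusted p = 2.79e-10). IFIH1 (MDA5), the sensor of long double-stranded RNA, read 21.4 and 21.7 CPM in ethanol and 54.6 and 57.1 CPM in 4OHT, and TLR3, the endosomal sensor, 3.91 and 5.15 CPM in ethanol and 20.8 and 23.6 CPM in 4OHT. All 3 were higher in both 4OHT libraries, and they are themselves interferon-inducible. Of 24 RNA-sensing genes 12 rose and 3 fell. IKBKE, a kinase of the pathway, changed by 1.75 ± 0.14, and the adaptor MAVS rose slightly, by 0.19 ± 0.048, and also without Cre (0.36 ± 0.048). Of 10 DNA-sensing genes 2 rose and 6 fell. Among all genes 26.4% were higher and 27.5% lower, so the number of DNA-sensing genes that rose is no result about them. CGAS lay below the filter, and STING1 read 37.1 and 36.1 CPM in ethanol and 38.9 and 38.1 CPM in 4OHT (edgeR adjusted p = 0.396). ENPP1, which degrades the messenger cGAMP, fell from 15.1 and 14.5 to 2.20 and 3.01 CPM. RNASEH2A, which removes ribonucleotides from DNA, fell from 42.2 and 41.9 to 10.7 and 10.6 CPM.

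Of 20 antigen-presentation genes 14 rose and 1 fell (median 0.46), against 8 called higher with limma on TPM values. TAP1, the peptide transporter, read 67.9 and 61.6 CPM in ethanol and 142 and 145 CPM in 4OHT, and HLA-B 157 and 151 CPM in ethanol and 281 and 288 CPM in 4OHT. Among 30 NF-kB targets and cytokines, 15 rose and 7 fell. CCL5 passed the count filter only through the Cre 4OHT group, and of the other 29 tested 14 rose. IL18 read 40.1 and 40.01 CPM in ethanol and 104 and 106 CPM in 4OHT, and CXCL2 changed by -1.84 ± 0.73. IL6, TNF and IL1B, the classic inflammatory cytokines, and the interferon-induced CXCL10 lay below the filter.

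Replication-dependent histone genes were partly measured in these poly-A libraries. Of 36, 24 lay below the filter. H2AC13 and H2BC11 passed it only through the Cre 4OHT group. Of the other 10, 9 rose. H2AC6 read 4.59 and 4.90 CPM in ethanol and 38.2 and 37.4 CPM in 4OHT, a change of 2.99 ± 0.11 (edgeR adjusted p = 1.36e-10), and H2BC5 4.88 and 4.18 CPM in ethanol and 29.2 and 33.6 CPM in 4OHT. Replication-dependent histone transcripts normally end without a poly-A tail, so these libraries see only tailed forms.

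RNA from the mitochondrial genome took 7.38% and 7.36% of counts with ethanol and 9.89% and 9.82% with 4OHT, against 6.87% to 7.59% without Cre. Of 15 such genes 12 rose and 1 fell (median 0.34). MT-CO1, a subunit of cytochrome oxidase, read 16046 and 16469 CPM in ethanol and 26330.0 and 26043 CPM in 4OHT, and MT-ND1 changed by -0.22 ± 0.067. The share moved as a proportion of each library, and whether this bears on other genes' levels was not tested.

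Genes of biosynthesis fell in part. Of 30 sterol-synthesis genes 26 fell and 1 rose (median -0.62), whereas without Cre 4 rose and 1 fell. INSIG1, the sterol sensor, read 63.9 and 60.8 CPM in ethanol and 11.8 and 12.5 CPM in 4OHT, and ACAT2, which makes acetoacetyl-CoA, 27.6 and 28.5 CPM in ethanol and 4.26 and 5.95 CPM in 4OHT. In both the groups lay apart. Without Cre, INSIG1 read 125 and 122 CPM in ethanol and 122 and 115 CPM in 4OHT, and ACAT2 30.1 and 29.9 CPM and 36.4 and 32.6 CPM. INSIG1 was thus lower in the Cre line than in the other already in ethanol. Nucleotide synthesis genes fell too, with 17 of 21 lower (median -0.52) and 4 not called. CAD, the first enzyme of pyrimidine synthesis, read 291 and 276 CPM in ethanol and 190.5 and 192 CPM in 4OHT (-0.57 ± 0.052, edgeR adjusted p = 7.42e-07). PHGDH, the entry to serine synthesis, fell from 165 and 149 to 26.3 and 26.2 CPM. Of 34 integrated-stress-response genes, to which it belongs, 20 fell and 8 rose. CBS passed the count filter only through the Cre 4OHT group, and of the other 33 tested 7 rose. SLC2A1, the glucose transporter GLUT1, rose from 196 and 192 to 588 and 589 CPM, while 12 of 27 hypoxia and glycolysis genes fell and 6 rose. Among all genes 27.5% were lower and 26.4% higher.

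Cytosolic ribosomal protein genes showed small changes. Of 54 tested 6 rose and 6 fell, with every change between RPSA at -0.36 and RPS20 at 0.25. Changes were larger in other genes of translation. Of 40 ribosome-biogenesis genes 15 rose and 12 fell, with log2 changes from -0.73 to 0.86. Of 57 mitochondrial ribosomal proteins 17 rose and 18 fell, with log2 changes from -0.93 to 0.71. Among all genes 26.4% were higher and 27.5% lower, and counts near these shares are no result about a group. EIF3B, a subunit of the initiation factor eIF3, was the exception in its complex. It read 379 and 359.6 CPM in ethanol and 193 and 188 CPM in 4OHT, a change of -0.96 ± 0.051 (edgeR adjusted p = 4.51e-09), while the other 12 subunits lay between -0.18 (EIF3A) and 0.39 (EIF3H). MRPS35, of the small mitochondrial ribosomal subunit, read 51.8 and 53.6 CPM in ethanol and 47.1 and 47.7 CPM in 4OHT and was not called (edgeR adjusted p = 0.0917).

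Epithelial markers remained high. Of 11 epithelial and colon markers 7 rose and 1 fell. CDH1, E-cadherin, rose from 66.2 and 61.8 to 172 and 159 CPM, and CEACAM1, an adhesion molecule of differentiated colon, from 4.08 and 4.24 to 29.7 and 28.3 CPM. VIL1, villin, was the faller (-1.11 ± 0.27), and VIM, vimentin, fell from 6.58 and 7.87 to 1.06 and 0.618 CPM. Of 18 markers of other cell types 8 were tested, and their summed level went from 234 and 212 to 349 and 337 CPM. TUBB3, of neuronal tubulin and present in many tumour lines, made up most of it and read 152 and 136 CPM in ethanol and 265 and 254 CPM in 4OHT. Without TUBB3 the sum was 82.1 and 76.2 CPM in ethanol and 83.5 and 83.1 CPM in 4OHT. The endothelial marker VWF and the muscle marker DES fell (-1.33 ± 0.44 and -0.87 ± 0.27), and the macrophage marker CD68 rose (0.34 ± 0.11). Their part in other results was not tested.

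Immediate early genes fell with 4OHT whether or not Cre was present. These genes answer growth signals within minutes, and 20 of 25 fell in the Cre line (median -0.90) and 23 of 25 without Cre (median -0.95). FOS read 335 and 326 CPM in ethanol and 7.87 and 9.34 CPM in 4OHT with Cre and 376 and 361 CPM in ethanol and 15.4 and 42.97 CPM in 4OHT without. FOSB read 244 and 244 CPM in ethanol and 10.2 and 12.1 CPM in 4OHT with Cre and 313 and 307 CPM in ethanol and 8.06 and 32.01 CPM in 4OHT without. In both lines both 4OHT libraries were far below ethanol, and the 4OHT libraries without Cre lay further apart from each other than those with Cre. FOS fell further with Cre (-1.60 ± 0.42, edgeR adjusted p = 0.0084), and for FOSB no difference passed the test (-0.49 ± 0.48, edgeR adjusted p = 0.45). EGR1 changed by -2.60 ± 0.077 with and -1.84 ± 0.073 without Cre, NR4A1 by -2.97 ± 0.15 and -2.34 ± 0.13, and the YAP target CCN2 by -3.08 ± 0.13 and -2.34 ± 0.15.

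Some genes went opposite ways in the lines. ATF3, the stress-induced factor and p53 target, rose from 33.3 and 32.8 to 59.4 and 54.9 CPM with Cre and read 49.8 and 49.2 CPM in ethanol and 15.9 and 20.5 CPM in 4OHT without. Its groups separated in each line but in opposite directions, and the responses differed by 2.24 ± 0.13 (edgeR adjusted p = 2.9e-08).

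**Figure D4:**
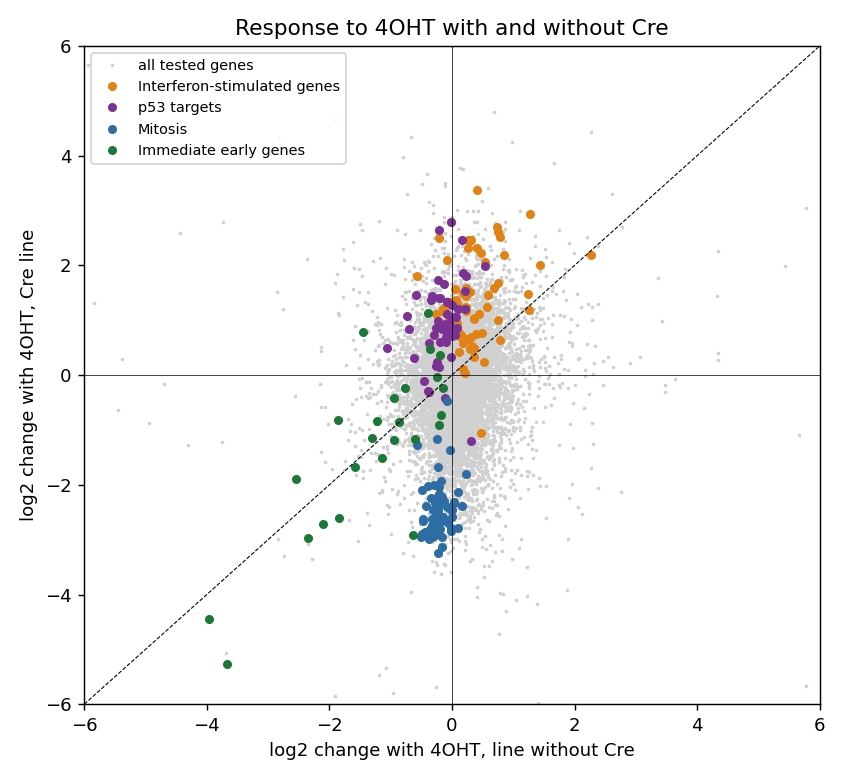
Log2 change with 4OHT in the Cre line (vertical) against that in the line without Cre (horizontal) for all tested genes, with 4 gene groups in colour and equality as the dashed line; 58 genes lie outside the axes. Mitosis genes lie below the line and most p53 targets and interferon-stimulated genes above it, whereas FOS and FOSB are low on both axes.

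4OHT is itself a ligand of the estrogen receptor, so a list of estrogen receptor genes and targets was read in both lines. Of its 12 tested genes 3 rose and 5 fell in the Cre line and 3 rose and 3 fell without Cre. The list holds the receptor genes ESR1, ESR2 and GPER1, and reads of ESR1 and of the transgene cannot be told apart. Of the target genes, AREG, CTSD and NRIP1 rose and CA12, GREB1 and MYB fell in the Cre line. Without Cre, NRIP1 rose and AREG, RARA and XBP1 fell. GREB1, a classic estrogen target, read 16.4 and 16.5 CPM in ethanol and 12.2 and 11.8 CPM in 4OHT with Cre and 17.1 and 18.4 CPM in ethanol and 14.8 and 17.8 CPM in 4OHT without, and MYB changed by -3.21 ± 0.36 with Cre.

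Among genes with a symbol, at least 1 CPM and no overlap between groups, the 10 largest rises and falls were taken. KRTAP3-1, a hair keratin-associated protein, had the largest rise. It read 2.38 and 3.09 CPM in ethanol and 76.05 and 75.4 CPM in 4OHT with Cre, a change of 4.79 ± 0.11 (edgeR adjusted p = 3.78e-12), and 0.847 and 0.771 CPM in ethanol and 1.099 and 1.53 CPM in 4OHT without. GALNT5, which starts O-glycans, rose from 17.3 and 17.7 to 237 and 236 CPM, and CPA4, a carboxypeptidase, from 39.9 and 41.6 to 528 and 499 CPM. In all 3 the 4OHT libraries were close to each other and far above ethanol. GRHL3, a transcription factor of the epidermal barrier, rose from 0.340 and 0.787 to 8.87 and 8.80 CPM, and RASGRP3, an activator of Ras, from 0.340 and 0.484 to 8.58 and 7.34 CPM. KRT6A, a keratin of wounded epidermis, read 0.113 and 0.121 CPM in ethanol and 2.13 and 2.93 CPM in 4OHT, and FLG, filaggrin, 0.113 and 0.121 CPM in ethanol and 2.13 and 2.01 CPM in 4OHT, though the call of FLG was lost with limma on TPM values (adjusted p = 0.165). GARIN1A changed by 3.50 ± 0.46. ATP6V0D2 (0.0567 and 0.0605 CPM in ethanol and 1.70 and 1.16 CPM in 4OHT) and CAVIN2 (0.113 and 0.0605 CPM in ethanol and 1.14 and 1.47 CPM in 4OHT) had no more than 3 counts in the ethanol group, so no fold is given.

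Beside FOS and FOSB, the largest falls were mostly of low genes. HBA2, an alpha globin with a near-identical copy in HBA1, went from 3.91 and 3.57 to 0 and 0 CPM, at least 33.8-fold lower. The pseudogene ANKRD20A4P went from 1.47 and 1.09 to 0 and 0 CPM, at least 11.6-fold lower, both against a floor of 3 counts over the group. FAM72C fell from 11.001 and 12.6 to 0 and 0.463 CPM, and has near-identical copies among which reads may be split. NR4A1AS, antisense to NR4A1, read 2.67 and 2.84 CPM in ethanol and 0 and 0.154 CPM in 4OHT, and strand was not known for the counting. GGT5, a gamma-glutamyltransferase, fell from 2.89 and 4.06 to 0.284 and 0.0772 CPM, and the homeobox gene DMBX1 from 8.05 and 7.26 to 0.213 and 0.849 CPM. NR4A1AS, PLPPR4 (1.42 and 1.82 CPM in ethanol and 0 and 0.154 CPM in 4OHT) and CHST1 (1.42 and 1.15 CPM in ethanol and 0 and 0.154 CPM in 4OHT) had no more than 3 counts in the 4OHT group, so no fold is given, and CHST1 was not called with limma on TPM values (adjusted p = 0.206).

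Set beside 4 days of Ku80 degradation, the ISG, p53, replication and mitosis lists had medians of the same sign and differed in size. IAA called 3669 of 19247 genes higher (19.1%) and 3145 lower (16.3%) in a fit of 40 libraries. Of 16719 genes tested in both, 1833 were higher in both, 41.4% of those higher with Cre and 52.0% of those higher with IAA. Both lower were 1810, 39.3% and 59.4%. In opposite directions, 306 were higher with Cre and lower with IAA, and 450 were lower with Cre and higher with IAA. The difference of the responses was called higher with Cre for 1081 genes (5.62%) and lower for 1483 (7.71%). The total of 2564 dropped to 1494, 1405, 1448 and 1383 when each of the 4 Cre libraries was left out. The compound, the line and the age of the controls differed too, values with decimals made up 18.2% to 19.9% of the Ku86Flox/- libraries and 9.59% to 13.1% of the degron libraries, and these cannot be told apart from the way Ku was lost.

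On the log2 scale ISGs rose less after excision. The difference was called lower with Cre for 36 of the 68, and the other 32 were not called. On the scale of the 40-library fit, IFI6 read 71.8 and 66.9 CPM in ethanol and 375 and 407 CPM in 4OHT, and 4.81, 2.81 and 3.49 CPM with DMSO and 286, 179 and 198 CPM with IAA in clones 1, 7 and 9. The degron clones began far lower than the Cre line and ended below it, and the changes differed by -3.42 ± 0.35 (edgeR adjusted p = 1.43e-07). OAS1 differed by -5.08 ± 1.21, IFIT1 by -1.55 ± 0.47 and RIGI by -1.62 ± 0.33. These genes also began lower in the clones. IFIT1 read 28.1 and 26.7 CPM in ethanol and 159 and 162 CPM in 4OHT in the Cre line. In the clones it read 4.33, 3.70 and 3.88 CPM with DMSO and 79.0, 52.1 and 72.9 CPM with IAA, so its rise in CPM was larger with Cre. For ISG15 the difference was not called (-0.97 ± 0.37, edgeR adjusted p = 0.0853).

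For p53 targets the difference was called higher with Cre for 17 of 56 and lower for 1. MDM2 read 296, 335 and 329.8 CPM with DMSO and 328, 469 and 394 CPM with IAA. It was higher with IAA in each clone (0.31 ± 0.11, edgeR adjusted p = 0.0346), and its change was larger with Cre by 1.06 ± 0.18 (edgeR adjusted p = 0.000176). BIK differed by 2.33 ± 0.55. For mitosis genes it was called lower with Cre for 17 of 62, with MKI67 at -1.60 ± 0.31 (edgeR adjusted p = 0.00067). TERT was not called in this comparison (0.35 ± 1.099, edgeR adjusted p = 0.915).

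Some translation and nucleotide genes that IAA lowered were less changed after excision. Of 57 mitochondrial ribosomal proteins the difference was called higher with Cre for 21, against 5.62% of all genes. It was called higher for 12 of 40 ribosome-biogenesis genes and for 6 of 21 nucleotide-synthesis genes. The other genes of these 3 lists were not called. EIF3B read 352, 346 and 368 CPM with DMSO and 44.6, 46.04 and 65.4 CPM with IAA, and its fall was smaller with Cre by 1.85 ± 0.23 (edgeR adjusted p = 2.48e-06). MRPS35 read 72.96, 68.7 and 66.4 CPM and 17.6, 20.6 and 13.8 CPM. In every clone both genes were far lower with IAA, whereas MRPS35 in the Cre line differed little between its groups. CAD differed by 0.94 ± 0.17 and XRCC6 by 0.79 ± 0.16. XRCC5 RNA itself changed by -0.50 ± 0.13 with IAA, which acts on the fused protein, and the changes differed by -2.68 ± 0.21.

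Immediate early genes differed in direction: 15 of 25 rose with IAA (median 0.71) and the other 10 were not called. The difference was called lower with Cre for 19. FOS read 8.07, 5.70 and 5.38 CPM with DMSO and 10.997, 4.70 and 4.54 CPM with IAA, near its 4OHT level in the Cre line and far below ethanol there.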

How the data were processed

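RNA of HCT116 cells, with an integrity number above 9 and poly-A selected, was sequenced per the labels' protocols. The authors deposited a table of estimated counts and a table of TPM per gene (scaled to length and library total), 61228 genes of which 20357 have an Ensembl identifier only. The submitters' processing notes list Salmon 1.10.2, kallisto 0.50.0, DESeq2 and the build GRCh38. Which tool made which table, and with what annotation and strand setting, is not given in the sources used here. All sample columns matched a sample by name. Counts were rounded. The 8 Ku86Flox/- libraries (TMM factors 0.974 to 1.02) were fitted as 4 groups with edgeR 4.0.16 in R 4.3.3: TMM, filterByExpr by group, quasi-likelihood test and Benjamini-Hochberg adjustment over 16726 genes, with 4 residual degrees of freedom. The degron comparison used all 40 HCT116 libraries in 16 groups (19247 genes). The further libraries of that fit were degron clones at other times or with a CDK inhibitor, and MAVS-knockout degron clones. The common biological coefficient of variation was 19.3% there and 4.63% in the fit of 8 libraries. Standard errors of the difference from IAA therefore draw on more than the groups compared. Replicate libraries differed by more than sampling noise (chi-square per degree of freedom 1.98 to 5.55). Reads carried no molecular identifiers, so floors cover counting error only. The scripts were tested on simulated data. Alternatives were limma 3.58.1 on log2(TPM + 1), DESeq2 1.42.0, library totals alone (added after seeing the data), other filters, fewer groups, a replicate block and leaving out each library. The members and gene lists were chosen with earlier results of these data known. Named genes were XRCC5, XRCC6, PRKDC and 5 neighbours on each side, 16 chosen genes, the 10 largest rises and falls, the 2 largest each way in each list, and the 5 largest differences each way. Genes outside that rule were named for their role after their values were seen, and some genes within it are not reported here. Promoters came from RefSeq (GRCh38.p14).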

Additional observations from a re-analysis of the deposited data

Results flagged for a closer look

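The response of the Cre line to 4OHT differed from that of the line without Cre at 6885 genes in all by the edgeR test of the difference itself. For the Ku genes this difference in log2 change was -3.19 for XRCC5, -0.38 for XRCC6 and -0.68 for PRKDC. It was 1.74 for IFIT1, 2.16 for IFI6, 1.74 for OAS1, 2.18 for ISG15, 1.63 for RIGI and 1.13 for IFIH1, all genes of the interferon response. Among p53 targets it was 1.95 for CDKN1A, 2.04 for GDF15 and 1.42 for MDM2. Genes of growth and division gave -2.97 for MKI67, -1.90 for CCNB1, -0.33 for CAD, -0.86 for EIF3B and -2.53 for TERT. KRT6A gave 5.01 and GGT5 -5.57. Both rest on few counts, 4 over the Cre ethanol group for KRT6A and 5 over the Cre 4OHT group for GGT5, so their size is uncertain.

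For genes with a group at 0 in both of its libraries the difference is given in CPM. It was 2.09 CPM for FLG and 1.71 CPM for KRT6B, an epidermal keratin. It was -2.78 CPM for HBA2, -1.03 CPM for HBA1 and -0.688 CPM for NLRP4. The pseudogene HMGB1P3 gave 1.08 CPM. The copies of 5.8S ribosomal RNA went opposite ways, 10.2 CPM for RNA5-8SN2 and -9.31 CPM for RNA5-8SN3. On the scale of the 40-library fit, RNA5-8SN2 in the Cre line read 0 and 0 CPM in ethanol and 0 and 8.00 CPM in 4OHT. RNA5-8SN3 read 0 and 5.62 CPM in ethanol and 0 and 0 CPM in 4OHT. In each case the libraries of the higher group disagreed. These copies, like HBA1 and HBA2, share sequence among which reads may be split, so their values are uncertain.

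The response also differed from that of the degron clones after 4 days of IAA at 2564 genes. KRTAP3-1 rose in the Cre line and not in the clones, a difference in CPM change of 74.4. TNFSF18, the ligand of GITR, gave 8.10 CPM, with 0.865, 2.81 and 0.996 CPM in DMSO and 0, 0 and 0 CPM in IAA. Smaller differences were 3.65 CPM for FRMPD2, 3.56 CPM for LINC01405 and 3.06 CPM for the readthrough gene POC1B-GALNT4, whose reads overlap its neighbours. In the other direction THSD7A gave -33.4 CPM, with 0, 0 and 0 CPM in DMSO and 33.5, 20.6 and 46.5 CPM in IAA, the sodium channel gene SCN9A -3.85 CPM and the cytokine receptor gene IL23R -3.65 CPM. NPIPP1, a pseudogene of a multicopy family, gave -4.98 CPM and LINC01881 -3.30 CPM.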

How the results depend on the processing

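No direction of a named gene reversed under any alternative. The balance of calls did change: with Cre it was 4424 higher and 4605 lower, against 4556 and 4507 with RLE factors, and without Cre it was 1215 higher and 1077 lower, against 1161 and 1209 with RLE factors, 521 and 809 with DESeq2, 1276 and 1480 with no count filter and 1474 and 1511 with the replicate block. Of the alternative values, 96 counts over all genes stayed within 1.5 times and 13 did not, and 175 list counts stayed and 1 did not. Of the values for the genes read this way, 424 kept their call, 3 gained it and 2 lost it. With limma on log2(TPM + 1), genes higher in the Cre line numbered 2668, 1234 at 1.5-fold and 334 at 2-fold, against 4424, 1992 and 838, and the antigen-presentation genes higher were 8 against 14. Genes called without Cre numbered 574 with limma, 1330 with DESeq2 and 1356 with only the groups compared, against 2292. Genes whose response differed from that to IAA numbered 1314 with only the groups compared, against 2564. MRPS35 was called with the replicate block (adjusted p = 0.0473), with limma (0.0106) and with only the groups compared (0.0335). Leaving out each library gave 3551 to 3613 higher and 3769 to 3962 lower with Cre, 773 to 2720 called without Cre, 5679 to 7125 for the difference between the lines and 1383 to 3434 for the difference from IAA. Deviations of same-numbered libraries of the Ku86Flox/- groups correlated at -0.0278 to 0.0632. With 2 libraries a group and counting noise in each gene, values this small cannot decide whether the numbers pair libraries. Degron libraries of 1 clone number come from the same clone. With the replicate block the counts were 4600 higher and 4768 lower with Cre and 2985 without Cre. They were 7301 for the difference between the lines and 2712 for the difference from IAA. With the clone block, added after seeing the data, IAA called 6789 genes, against 6814, and the difference from IAA was not called for IL23R (adjusted p = 0.0665) and LINC01881 (0.0633). With 2 libraries a group, small changes in genes of few counts are not detectable at this depth. The cause of these shifts was not tested.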

Other observations

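Several further gene groups were measured in the Cre line, where 26.4% of all genes were called higher and 27.5% lower; shares near those values are no result about a group. Of 24 lysosome and autophagy genes 14 rose and 6 fell (median 0.30). ATP6V0D1, a subunit of the lysosomal proton pump, rose from 39.98 and 38.4 to 71.7 and 76.1 CPM. In the MYC network, 6 of 12 rose and 2 fell: the MYC antagonists MXD1 and MXD4 rose from 9.19 and 8.17 to 23.3 and 24.7 CPM and from 46.5 and 45.4 to 113 and 109 CPM, and MXD3 fell from 15.7 and 15.4 to 8.80 and 9.73 CPM. Of 20 genes of TGF-beta signalling and epithelial-mesenchymal change 9 rose and 10 fell, with LAMB3, a laminin chain, from 15.2 and 14.6 to 43.6 and 42.5 CPM. Of 14 Wnt targets 5 rose and 7 fell, NOTUM, a Wnt inhibitor, by -1.44 ± 0.15. Of 20 genes that silence retroelements 9 fell and 4 rose. UHRF1, which guides DNA methylation to new strands, fell from 197 and 193 to 53.4 and 52.97 CPM, and DNMT1, the maintenance methyltransferase, from 351 and 337 to 127 and 122 CPM, while MORC2 rose from 43.4 and 43.8 to 69.1 and 68.3 CPM. Of 28 genes of RNA polymerase III and the signal recognition particle 12 rose and 6 fell.

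The aryl hydrocarbon receptor targets CYP1A1 and NQO1 fell from 3.86 and 2.48 to 1.06 and 0.772 CPM and from 465 and 462 to 193 and 195 CPM, 4 of 9 genes of that list falling and 2 rising. Of 13 heat-shock genes 7 fell and 3 rose, HSP90AA1 from 3326 and 3369 to 1876 and 1972 CPM. Of 20 genes of the unfolded protein response 7 fell and 4 rose. Among all genes 27.5% were lower and 26.4% higher, so counts near these shares are no result about these groups. Of 17 intermediate filament and colon differentiation genes 10 rose and 5 fell. KRT81 passed the count filter only through the Cre 4OHT group, and of the other 16 tested 9 rose.

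Genes within 1 Mb of the outermost reference gene at either end of a chromosome were described by position. Distance to the chromosome's end itself was not measured. Of 592 tested there, 32.6% rose and 19.8% fell (median 0.069). Of 14026 others placed in the reference, 27.5% rose and 30.3% fell (median -0.014). Shares also varied between whole chromosomes. On chromosome 19, 33.5% rose and 20.7% fell, and on chromosome 13, 20.6% rose and 37.3% fell. Whether the mix of chromosomes bears on the comparison was not tested.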
